A study of Mus musculus with 6 samples.

Results

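The semaphorins are the largest family of guidance cues for growing axons, and the plexins and neuropilins are their receptors. The 31 genes described here were every gene of the array whose symbol named a semaphorin of classes 3 to 7, a plexin or a neuropilin, out of 19938 genes measured. They were 20 semaphorins, 9 plexins and 2 neuropilins. The rule that picks them used symbols alone, but the family was taken up with earlier results of these data known. Cells of the W4 line, mouse embryonic stem cells, were differentiated for 16 days towards neurons, in a medium with B27, N2, bFGF, laminin and insulin, before RNA was taken for arrays. The first group of 3 arrays (VPA 1 to 3) came from cultures given 300 uM sodium valproate, an antiepileptic drug and histone deacetylase inhibitor, throughout the 16 days. The other group of 3 arrays (PBS 1 to 3) came from cultures given the solvent, phosphate-buffered saline. The submitters describe the 3 arrays of a group as biological replicates; whether they were separate differentiations is not given in the sources used here, and all came from 1 cell line.

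Semaphorins share an extracellular sema domain. Those of class 3 are secreted and mostly bind a neuropilin, which holds the ligand but has little signalling of its own, in a complex with a type A plexin or Plxnd1, which carries the signal through its cytoplasmic GTPase-activating domain. Semaphorins of classes 4, 5 and 6 are membrane proteins, Sema7a is tied to the membrane by a lipid anchor, and most of these bind plexins directly. In the developing nervous system these proteins repel or attract axons, steer migrating neurons and neural crest cells and prune synapses, and outside it they shape blood vessels, heart and bone.

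Of the 31 genes, 8 rose and 6 fell with VPA. The rises were those of Sema5a, Sema3d, Plxnd1, Plxna4, Sema3a, Plxna2, Sema6d and Sema3g, from 1.14-fold to 2.48-fold. The falls were those of Sema3e, Sema4a, Plxna3, Sema3f, Sema4g and Sema6a, from 1.14-fold to 1.75-fold. A gene was counted as changed at a Benjamini-Hochberg adjusted p under 0.05 by limma, with the adjustment made over all genes. The 14 changed genes were 45.2% of the family, where 29.2% of all genes passed the same test, 13.6% higher and 15.7% lower. Among the 14209 genes that were not below a background gauge in both groups, 36.4% passed. On the log2 scale, the median change of the family was -0.05. That median was 0.00 over all genes and -0.03 over those not below the gauge in both groups. The median size of the change was 0.15 for the family, 0.12 over all genes and 0.15 over those not below the gauge. Both ligands and receptors moved in both directions, with 5 of 20 semaphorins higher and 5 lower, and 3 of 11 receptors higher and 1 lower. Of the 31 genes, 7 (22.6%) both passed and changed at least 1.5-fold, as did 5.65% of all genes and 7.59% of those not below the gauge in both groups.

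**Figure D1:**
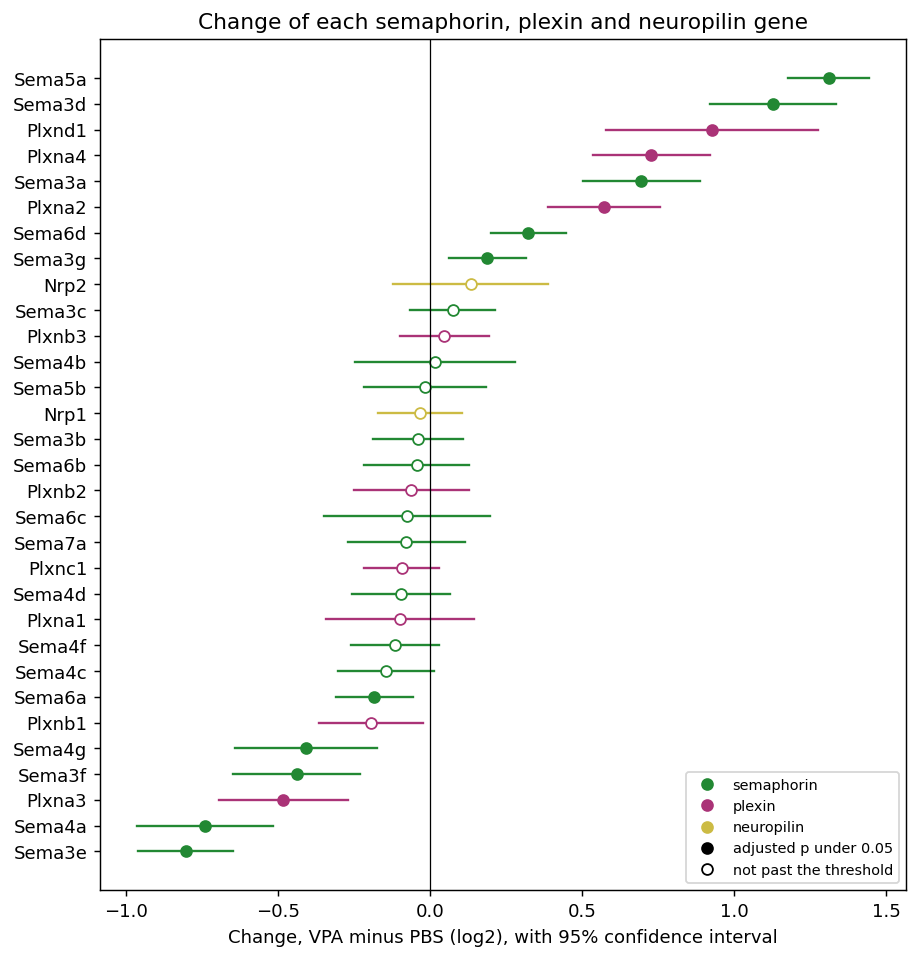
Change of each of the 31 genes on the x axis (VPA minus PBS, log2), with genes in order of change on the y axis. Points are the fitted changes from 3 arrays against 3, lines are unadjusted 95% confidence intervals, filled points passed an adjusted p under 0.05, and colours mark semaphorins, plexins and neuropilins. Sema5a stands at the top with 1.31 and Sema3e at the bottom with -0.80, and both neuropilins lie near 0.

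All values below are the deposited log2 signals, on which a difference of 1 means a 2-fold difference. The background gauge was 6.155, the 95th percentile of the mean level of 1027 olfactory receptor genes, which are mostly silent outside the nose; a group mean below it was not told apart from background. Only Plxnb3 lay below the gauge in both groups, and Sema3d did so with PBS alone. Levels of different genes come from different probes and were not compared.

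The cultures held more than neurons, and markers of several cell types moved with VPA. Of 20 pan-neuronal genes 12 fell and 2 rose, although each stayed above the gauge, with the neuronal tubulin gene Tubb3 at 11.60 with PBS and 11.33 with VPA. Of 20 fibroblast and matrix genes 19 rose, as did 11 of 13 endothelial genes, 11 of 14 smooth and striated muscle genes (1 fell) and 8 of 12 neural crest genes (2 fell). The summed linear signal of the list, expressed as log2, ran from 10.11 to 10.18 over the PBS arrays and from 10.66 to 10.86 over the VPA arrays for endothelial genes, from 13.93 to 14.02 and from 14.63 to 14.70 for fibroblast and matrix genes, and from 10.28 to 10.35 and from 11.59 to 12.18 for muscle genes. That of the pan-neuronal genes ran from 15.42 to 15.48 and from 15.24 to 15.30, and that of the neural crest genes, of which most rose, from 12.56 to 12.63 and from 12.37 to 12.45. A linear sum is weighted to its brightest genes, and Tfap2b, the brightest of the neural crest list, went from 11.52 to 10.12. Of 11 oligodendrocyte lineage genes 4 rose and 3 fell, of 14 astrocyte and radial glia genes 4 rose and 3 fell, and of 12 microglia and macrophage genes 0 passed limma (2 had an unadjusted p under 0.05) and 9 lay below the gauge in both groups. By the same test 29.2% of all genes passed, and 36.4% of those not below the gauge in both groups. The share that passed was above both figures in every marker list except that of microglia and macrophage genes. Many semaphorins and plexins are made by these cell types too, and the part of a shift in cell types in the changes below was not tested. In RNA from whole cultures, fewer cells of a type and less RNA per cell cannot be told apart.

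The class 3 ligands split, with 3 of 7 higher and 2 lower. The 5 that passed were 71.4%, against 29.2% of all genes and 36.4% of those not below the gauge in both groups. Sema3d, which guides axons and the cells of the cardiac neural crest and heart vessels, had values of 5.57, 5.72 and 5.74 on PBS arrays 1 to 3 and of 6.62, 6.97 and 6.82 on VPA arrays 1 to 3. The groups did not overlap, and the PBS values all lay below the gauge. The measured change was 1.13 (SE 0.09, adjusted p = 4.01e-05, limma), and its true size is not defined because the PBS level was not told apart from background. Sema3a, the founding member of the vertebrate family and a repellent of sensory and cortical axons, was at 8.18, 8.51 and 8.32 with PBS and at 9.09, 8.98 and 9.02 with VPA. It rose by 0.69 (SE 0.09, adjusted p = 0.000388, limma), or 1.62-fold, with every VPA value above every PBS value. Sema3g, a ligand made in vessel endothelium, was at 6.62, 6.59 and 6.68 with PBS and at 6.81, 6.78 and 6.85 with VPA. Its rise was small, 0.19 (SE 0.06, adjusted p = 0.0335, limma), although the groups did not overlap. Without 1 array it passed only when the array left out was VPA 1, and the adjusted p was 0.104, 0.139 and 0.0649 without PBS 1, 2 and 3, and 0.0579 and 0.0914 without VPA 2 and VPA 3.

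Sema3e and Sema3f were the class 3 ligands that fell. Sema3e, which binds Plxnd1 without a neuropilin and patterns vessels and axon tracts, was at 7.30, 7.28 and 7.21 with PBS and at 6.41, 6.58 and 6.38 with VPA. The groups stood clear of each other, and the change was -0.80 (SE 0.07, adjusted p = 5.21e-05, limma), the largest fall among the 31 genes. Sema3f, which acts through Nrp2 and prunes axons and dendritic spines, was at 9.36, 9.26 and 9.29 with PBS and at 9.07, 8.84 and 8.68 with VPA. All VPA values lay below the PBS values, and the change was -0.44 (SE 0.09, adjusted p = 0.00702, limma). Sema3c, a ligand of the heart outflow tract, and Sema3b did not pass. Sema3c had means of 7.21 ± 0.08 with PBS and 7.29 ± 0.03 with VPA (SD, n = 3), a difference of 0.07 with a 95% confidence interval from -0.07 to 0.21. Sema3b had means of 6.47 ± 0.03 and 6.43 ± 0.10 (SD, n = 3), little above the gauge.

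Of the class 3 genes, 4 lie on 1 chromosome in a row, and their changes differed in sign. In the gene order of the GRCm38.p6 assembly, Sema3d and Sema3a stand on chromosome 5 with 0 protein-coding genes between them, Sema3e follows after 3 genes and Sema3c after a further 15. Along this row the changes were 1.13, 0.69, -0.80 and 0.07. Of the 3 genes between Sema3a and Sema3e, only Speer3 was measured, at 4.22 with PBS and 4.31 with VPA, both below the gauge. Between Sema3e and Sema3c, 3 genes were measured and all passed. Pclo, which encodes a scaffold of the presynaptic active zone, fell by 0.66 (SE 0.08), and Cacna2d1, which encodes an auxiliary calcium channel subunit, rose by 0.44 (SE 0.09). Hgf, the ligand of Met, differed by 0.37, with both means, 4.86 and 5.23, below the gauge. Sema3b and Sema3f stand on chromosome 9 with 3 genes between them, of which Gnai2 and Gnat1 did not pass and Slc38a3, an amino acid transporter gene, fell by 0.25 (SE 0.08).

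The stretches upstream of the 3 neighbours that changed, and of Sema5a, the gene with the largest rise, are shown because the first are neighbours in the gene order whose changes differ in sign and the last marks the top of the range. They are RefSeq's GRCm38.p6 sequences of the 250 bases before an annotated start, 5′ to 3′ on the gene's strand, which is the plus strand for each: chr15:32244563-32244812 for Sema5a, chr5:12382916-12383165 for Sema3d, chr5:13396534-13396783 for Sema3a and chr5:14025026-14025275 for Sema3e. Capitals mark every match on either strand to TATAAA, to the GC box GGGCGG or to the E-box core CANNTG, of which CACGTG is a special case.
Sema5a: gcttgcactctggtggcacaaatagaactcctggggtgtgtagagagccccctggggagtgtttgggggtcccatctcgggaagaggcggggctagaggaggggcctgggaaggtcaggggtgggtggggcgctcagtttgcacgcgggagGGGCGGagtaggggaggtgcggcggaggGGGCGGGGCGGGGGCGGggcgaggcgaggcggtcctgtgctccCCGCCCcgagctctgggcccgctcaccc
Sema3d: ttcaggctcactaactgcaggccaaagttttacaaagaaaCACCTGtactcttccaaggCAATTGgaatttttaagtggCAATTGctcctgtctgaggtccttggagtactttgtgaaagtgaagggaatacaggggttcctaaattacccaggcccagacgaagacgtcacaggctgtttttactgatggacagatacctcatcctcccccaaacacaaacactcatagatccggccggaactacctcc
Sema3a: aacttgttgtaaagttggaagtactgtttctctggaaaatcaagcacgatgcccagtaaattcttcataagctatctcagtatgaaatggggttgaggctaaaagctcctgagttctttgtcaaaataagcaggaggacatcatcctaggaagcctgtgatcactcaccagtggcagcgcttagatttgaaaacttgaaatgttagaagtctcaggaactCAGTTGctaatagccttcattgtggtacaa
Sema3e: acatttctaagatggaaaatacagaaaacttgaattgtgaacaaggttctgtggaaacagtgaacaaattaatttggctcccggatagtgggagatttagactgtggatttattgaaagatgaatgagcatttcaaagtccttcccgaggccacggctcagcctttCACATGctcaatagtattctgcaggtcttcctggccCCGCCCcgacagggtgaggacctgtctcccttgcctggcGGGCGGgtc

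The Sema5a stretch held 5 GC boxes, some of them overlapping, and a GC content of 72.0%. The class 3 neighbours had GC contents of 46.8% (Sema3d), 40.8% (Sema3a) and 48.0% (Sema3e). Sema3d held 3 E-box cores and no GC box, Sema3a held 1 E-box core, and Sema3e held 2 GC boxes and 1 E-box core. Of the 31 genes, 26 had at least 1 such stretch, 37 in all; those of Plxna1, Plxna4, Sema3b, Sema3f and Sema6a were not used here. A GC box was found in 73.0% of the 37 stretches and in 32.7% of the 32851 stretches of all genes, and the median GC content was 64.0% against 52.4%. An E-box core was found in 51.4% against 66.2%, CACGTG in 5.4% against 6.0%, and TATAAA in 0 of 37 against 12.4%. Several genes gave more than 1 stretch, and no test was made. The stretches of all genes were not limited to genes above the gauge, whereas only Plxnb3 of the family lay below it in both groups. The shares are thus of unlike sets. Among the genes that rose and that fell, stretches both with and without a GC box were found. A match describes letters and not a bound site.

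Of the class 4 semaphorins, which are membrane-bound and act in immune cells and the nervous system, 2 of 6 fell and 0 rose. The share that passed, 33.3%, lay between 29.2% of all genes and 36.4% of those not below the gauge in both groups. Sema4a was at 8.21, 8.30 and 8.16 with PBS and at 7.72, 7.36 and 7.37 with VPA. The lowest PBS value was 0.44 above the highest VPA value, and the change was -0.74 (SE 0.10, adjusted p = 0.000616, limma), or 1.67-fold lower. Sema4g was at 8.65, 8.71 and 8.64 with PBS and at 8.51, 8.21 and 8.06 with VPA, a change of -0.41 (SE 0.10, adjusted p = 0.0169, limma). The groups did not overlap, but VPA 1 lay close to the PBS arrays, and the call was lost without PBS 1 (adjusted p = 0.0554), PBS 2 (adjusted p = 0.0642) or VPA 2 (adjusted p = 0.0532). Sema4b, Sema4c, Sema4d and Sema4f did not pass, with changes of 0.02, -0.15, -0.10 and -0.12. Sema4d, a ligand of Plxnb1, had another probe set on the array, dimmer than the one used, with a change of -0.25 against -0.10. Without VPA 1 the changes of Sema4c, Sema4d and Sema4f were -0.21, -0.17 and -0.17, and all 3 passed (adjusted p = 0.0156, 0.0287 and 0.0269, limma).

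Sema5a, which carries thrombospondin repeats and can repel or attract axons according to the matrix around them, showed the largest change of the 31 genes. Its values were 8.11, 8.21 and 8.23 with PBS and 9.52, 9.46 and 9.52 with VPA. The VPA arrays lay within 0.06 of each other, and the lowest of them was 1.22 above the highest PBS array. It rose by 1.31 (SE 0.06, adjusted p = 2.09e-06, limma), or 2.48-fold, a change larger in size than that of 99.2% of all genes. Its relative Sema5b, which keeps retinal axons in place, was at 9.00, 9.01 and 9.04 with PBS and at 9.21, 8.89 and 8.90 with VPA, and did not pass (change -0.02, 95% confidence interval -0.22 to 0.18).

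Among the class 6 semaphorins, transmembrane proteins that can also act as receptors, Sema6d rose and Sema6a fell. Sema6d, a ligand of Plxna1, was at 9.69, 9.70 and 9.72 with PBS and at 10.07, 10.02 and 9.99 with VPA, a rise of 0.32 (SE 0.05, adjusted p = 0.00211, limma). Both groups were tight, and they did not overlap. Sema6a, a ligand of Plxna2 and Plxna4 in the cerebellum and hippocampus, was at 11.10, 11.02 and 11.07 with PBS and at 10.88, 10.92 and 10.84 with VPA. The change of -0.18 (SE 0.06, adjusted p = 0.0355, limma) was small. The call was lost on quantile-normalized values (adjusted p = 0.0866), and likewise without PBS 1, 2 or 3 (adjusted p = 0.128, 0.0735 and 0.116) and without VPA 2 or VPA 3 (adjusted p = 0.0579 and 0.097). Sema6b and Sema6c did not pass, with changes of -0.05 and -0.08; the array held 2 probe sets for Sema6b with the same value on each array. Without VPA 1, Sema6c passed with a change of -0.23 (adjusted p = 0.0105). Sema7a, which binds Plxnc1 and integrins and promotes axon growth, had means of 8.31 ± 0.06 with PBS and 8.23 ± 0.16 with VPA (SD, n = 3), a difference of -0.08 with a 95% confidence interval from -0.27 to 0.11.

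**Figure D2:**
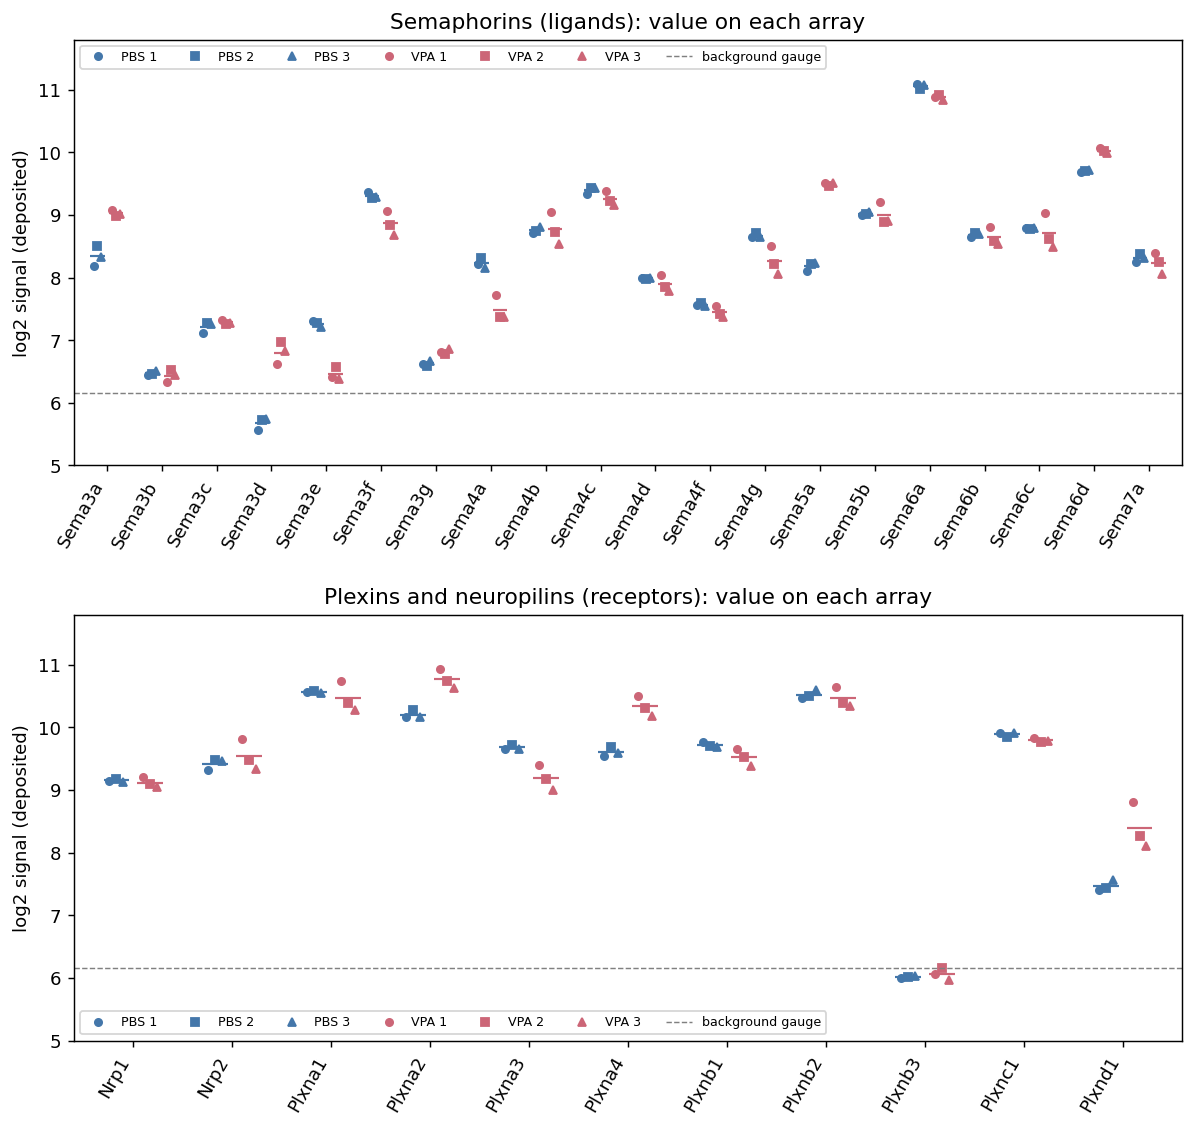
Deposited log2 signal of each gene on each array, with semaphorins in the upper panel and plexins and neuropilins in the lower one. Blue points are PBS arrays and red points VPA arrays, the marker shape gives the array number, short lines are group means of 3 arrays, and the dashed line is the background gauge of 6.155. Sema5a, Sema3a, Plxna4 and Plxna2 show VPA arrays above all PBS arrays, Sema3e and Sema4a the reverse, and VPA 1 is the highest VPA point for most genes.

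Neither neuropilin passed. Nrp1, the receptor subunit for Sema3a that also binds VEGF, was at 9.15, 9.18 and 9.13 with PBS and at 9.21, 9.09 and 9.06 with VPA. The groups overlapped, and the change of -0.03 had a 95% confidence interval from -0.17 to 0.10. Nrp2, the subunit for Sema3f, was at 9.31, 9.47 and 9.46 with PBS and at 9.82, 9.48 and 9.34 with VPA. Only VPA 1 stood apart, and the change of 0.13 (95% confidence interval -0.12 to 0.39) was 0.00 without it. By limma 0 of 2 passed, and 0 of 2 had an unadjusted p under 0.05.

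The type A plexins, the signalling partners of the neuropilins, moved apart, with 2 of 4 higher and 1 lower. The 3 that passed were 75.0% of only 4 genes, against 29.2% of all genes and 36.4% of those not below the gauge in both groups. Plxna4, which transmits the Sema3a signal in sensory and sympathetic neurons, was at 9.54, 9.69 and 9.59 with PBS and at 10.50, 10.31 and 10.19 with VPA. All VPA values were higher, and the rise was 0.73 (SE 0.09, adjusted p = 0.0003, limma), or 1.65-fold. Plxna2, a receptor for class 6 semaphorins in granule cells, was at 10.16, 10.27 and 10.17 with PBS and at 10.93, 10.75 and 10.64 with VPA, a rise of 0.57 (SE 0.08, adjusted p = 0.000872, limma). Plxna3, the partner of Nrp2 in the Sema3f response, was at 9.66, 9.72 and 9.66 with PBS and at 9.40, 9.18 and 9.00 with VPA. Its groups did not overlap, and the change was -0.48 (SE 0.09, adjusted p = 0.0048, limma). Plxna1 was at 10.56, 10.59 and 10.55 with PBS and at 10.74, 10.38 and 10.27 with VPA, so that VPA 1 lay above and the other VPA arrays below the PBS arrays. Its change was -0.10 (95% confidence interval -0.34 to 0.14) and did not pass; without VPA 1 it was -0.24 and passed (adjusted p = 0.00901, limma).

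Plxnd1, the receptor of Sema3e, was the receptor gene with the largest change. It was at 7.41, 7.43 and 7.56 with PBS and at 8.80, 8.26 and 8.11 with VPA, a rise of 0.92 (SE 0.15, adjusted p = 0.00207, limma), or 1.90-fold. Every VPA array lay above the PBS arrays, with VPA 1 the highest, and the rise was 0.72 without that array (adjusted p = 0.000144, limma). Plxnd1 is also a gene of vessel endothelium, and endothelial genes rose with it: Cdh5, the vessel cadherin, went from 6.09, below the gauge, to 8.07, and Pecam1 from 6.22 to 6.80. With PBS, 7 of the 13 endothelial genes lay below the gauge, so the size of those rises is not defined. The part of endothelial cells in the rise of Plxnd1 was not tested. Of the type B plexins, receptors of class 4 semaphorins, 0 of 3 passed limma, and 1, Plxnb1, had an unadjusted p under 0.05. Plxnb1 came nearest to the threshold of all genes in the family that missed it, at 9.76, 9.70 and 9.69 with PBS and 9.65, 9.53 and 9.38 with VPA (change -0.20, SE 0.08, adjusted p = 0.0861, limma). Its groups did not overlap, and without VPA 1 it passed with a change of -0.26 (adjusted p = 0.00999, limma). Plxnb2 changed by -0.06, and Plxnb3 was below the gauge on each PBS array. The groups of Plxnc1, the receptor of Sema7a, did not overlap either, but its change of -0.09 (adjusted p = 0.238, limma) did not pass. The groups of 16 of the 31 genes did not overlap, 14 of which passed the test, which is 51.6%; the share was 44.0% of all genes and 52.7% of the genes not below the gauge in both groups, so that the family lay near the latter.

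Set beside their known receptors, ligands and receptors moved alike in some pairs and apart in others. These are values of the same arrays side by side, and no pair was tested as a pair. For Sema3a the change was 0.69, for its plexin Plxna4 0.73 and for Nrp1 -0.03. For Sema3f it was -0.44, for Plxna3 -0.48 and for Nrp2 0.13. In both cases the ligand and the plexin passed with the same sign, and the neuropilin did not pass. Each of these ligands was set beside 1 chosen type A plexin. The type A plexins differed in sign, with Plxna2 at 0.57 and Plxna1 at -0.10, so a shared sign depends on the plexin chosen. Sema5a, Sema3d, Sema3g, Sema4a and Sema4g also passed and were not placed in a pair. Sema3e and its receptor Plxnd1 had opposite signs, -0.80 and 0.92, and both passed. Sema6a, at -0.18, stood against its receptors Plxna2 and Plxna4 at 0.57 and 0.73. The call of Sema6a held in only 7 of 14 other settings, and both plexins passed in all 14. Sema6d rose by 0.32, and its receptor Plxna1 did not pass, at -0.10. Neither gene of the pairs Sema4d and Plxnb1, Sema4c and Plxnb2, and Sema7a and Plxnc1 passed on all 6 arrays. Without VPA 1, Sema4d and Plxnb1 both passed as lower (-0.17 and -0.26), and so did Sema4c (-0.21).

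VPA 1 stood apart from the other VPA arrays in most of these genes. It was the highest VPA array for 25 of 31 genes (80.6%), against 36.3% of all genes and 45.4% of the genes not below the gauge in both groups. Its value minus the mean of VPA 2 and VPA 3 had a median of 0.21 over the 31 genes, from -0.27 (Sema3d) to 0.62 (Plxnd1), and of -0.02 over all genes and 0.02 over those not below the gauge. The receptors had a median of 0.25, the class 4 semaphorins 0.28 and the class 3 semaphorins 0.00. VPA 3 was the lowest VPA array for 22 of 31 genes (71.0%), against 27.8% of all genes and 31.2% of those not below the gauge in both groups. The median SD within the VPA group was 0.14 for the family and 0.09 for all genes, and that within the PBS group 0.04 and 0.06. Without VPA 1 each of the 8 genes that rose still passed, and 12 genes fell in place of 6, with Plxna1, Plxnb1, Sema4c, Sema4d, Sema4f and Sema6c added. Calls grew over all genes too, from 2702 to 3949 higher and from 3123 to 4224 lower. The median change of the family was then -0.13, and that over all genes 0.01. Without PBS 1, PBS 2 or VPA 2 the number that fell was 4. What set VPA 1 apart is not given in the sources used here.

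**Figure D3:**
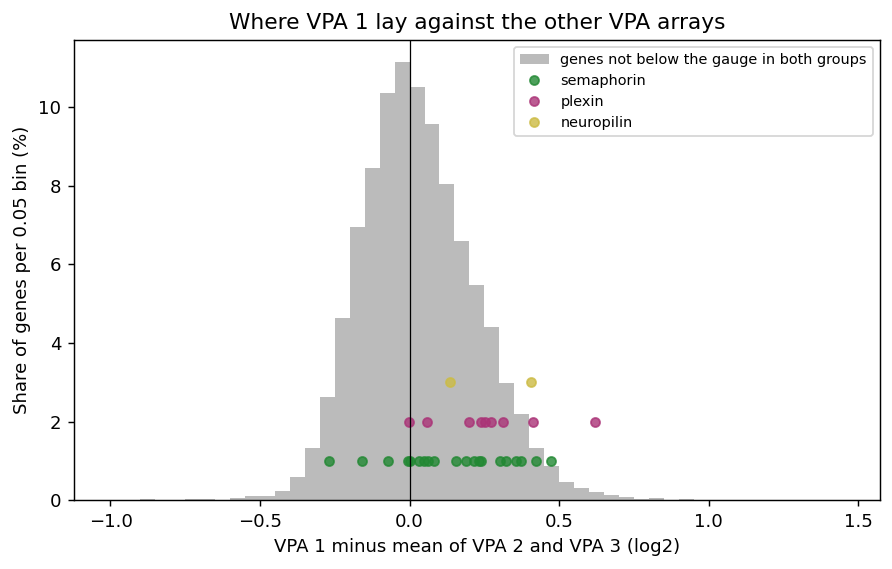
Value of VPA 1 minus the mean of VPA 2 and VPA 3 (log2, x axis). Grey bars give the share of the 14209 genes not below the gauge in both groups per bin of 0.05 (y axis, percent), and points give the semaphorins, plexins and neuropilins, set at 3 heights only to keep them apart. Most points lie right of 0, with a median of 0.21 for the 31 genes against 0.02 for the grey distribution.

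The list of other genes of the pathway held 71 entries, of which 68 were measured: 15 rose and 17 fell, with a median change of 0.03 (0.00 over all genes). The 32 that passed were 47.1%, against 29.2% of all genes and 36.4% of those not below the gauge in both groups; 3 of the 68 were below it in both. Without PBS 2 or PBS 3 the number that fell was 11. Of 18 coreceptors and partner receptors, 8 rose and 3 fell, so that 61.1% passed. Itga1, an integrin subunit and partner of Sema7a, had means of 5.47 with PBS, below the gauge, and 6.23 with VPA, a measured difference of 0.77 (SE 0.06). Met, a receptor kinase that associates with type B plexins, rose by 0.55 (SE 0.07), and Kdr, the VEGF receptor that associates with Nrp1, by 0.53 (SE 0.07). Kdr and Flt1, both among the 8 that rose, also stand in the endothelial list above, and the part of endothelial cells was not tested. The 3 that fell were the cell adhesion genes Chl1, L1cam and Nrcam, whose products join neuropilins in the response to class 3 semaphorins. Chl1 changed by -0.68 (SE 0.07), L1cam by -0.48 (SE 0.11) and Nrcam by -0.41 (SE 0.05); the last 2 were chosen after their values were seen. Cntn2, another adhesion gene of the list, also chosen after its value was seen, rose by 0.38 (SE 0.11, adjusted p = 0.0342, limma).

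Of the 5 VEGF family genes, whose products share neuropilins with the class 3 semaphorins, 2 rose and 2 fell. The 4 that passed were 80.0% of only 5 genes, against 29.2% of all genes and 36.4% of those not below the gauge in both groups. Vegfd went from 6.40 ± 0.18 with PBS to 7.81 ± 0.15 with VPA (SD, n = 3), a rise of 1.41 (SE 0.10). Pgf, placental growth factor, rose by 0.78 (SE 0.07) from a PBS mean of 6.18, little above the gauge, with PBS 3 below it at 6.11. Vegfa, the main vessel growth factor, went from 10.16 ± 0.03 to 9.63 ± 0.19 (SD, n = 3), a change of -0.53 (SE 0.09), and Vegfb changed by -0.24 (SE 0.06). Vegfc did not pass, at 0.03.

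Of 37 measured cytoplasmic effectors, 3 rose and 12 fell, with a median change of -0.08. The 15 that passed were 40.5%, against 29.2% of all genes and 36.4% of those not below the gauge in both groups. Of the latter genes, 2199 were higher and 2968 lower, with a median change of -0.03. Cdk5r1, which encodes the activator of the kinase Cdk5 that phosphorylates collapsin response mediator proteins, changed by -0.63 (SE 0.06), and Pak3, a kinase acting on the actin cytoskeleton, by -0.48 (SE 0.06). Mical2, which encodes an enzyme that oxidizes actin, rose by 0.56 (SE 0.10), and Sh3bp1, which encodes a Rac inhibitor that acts below Plxnd1, by 0.55 (SE 0.09). Of the 20 pan-neuronal genes 12 fell and 2 rose, with a median change of -0.22. The 2 that rose were Nefm, by 1.24, and Nefl, by 0.53, and the lowest change of that list was -0.53. The part of a lower neuronal share in the changes of these effectors was not tested. Of 8 enzymes that process or shed semaphorins, 2 rose and 0 fell by limma, and 4 of 8 had an unadjusted p under 0.05 in either direction, as did 39.7% of all genes and 47.0% of those not below the gauge in both groups. The share that passed, 25.0%, was below the 29.2% of all genes. Adamts1, a secreted protease that cleaves Sema3c, went from 7.48 ± 0.16 to 8.88 ± 0.05 (SD, n = 3), a rise of 1.41 (SE 0.08), and Adam10, a membrane shedding protease, rose by 0.21 (SE 0.06). Furin, the protease that processes class 3 semaphorins, did not pass, with a change of 0.19 (SE 0.11).

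**Figure D4:**
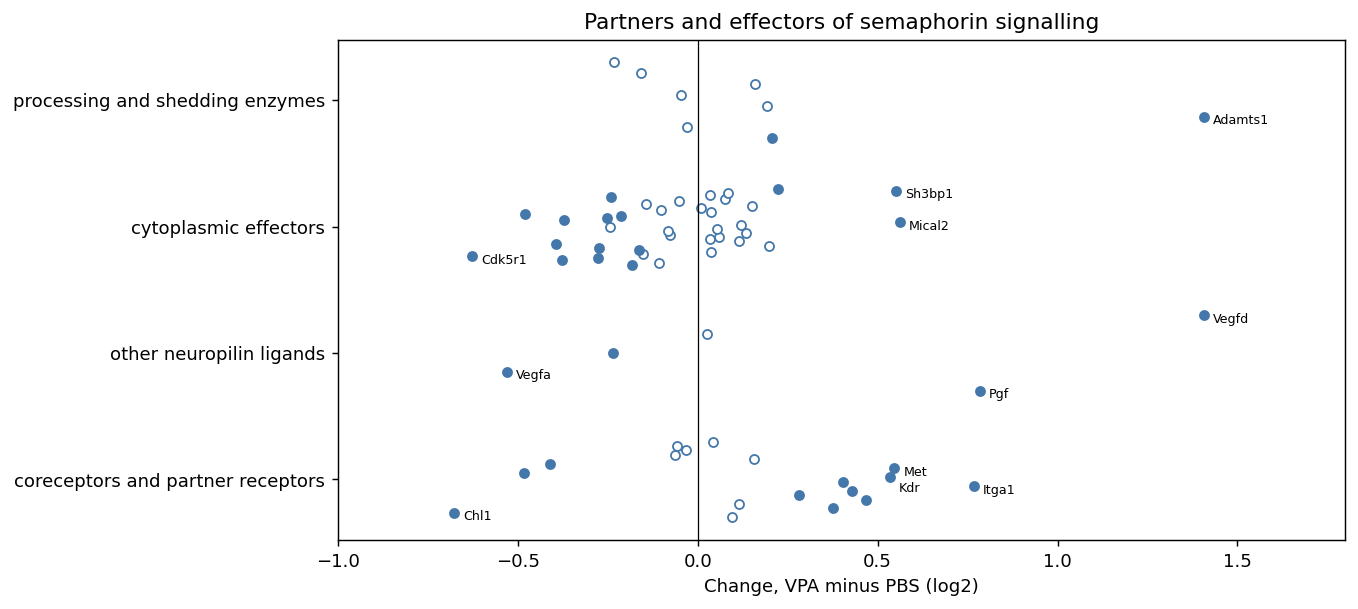
Change of each measured gene of the pathway list on the x axis (VPA minus PBS, log2), grouped by role on the y axis; the position within a role has no meaning. Filled points passed an adjusted p under 0.05, and those with a change of at least 0.5 in size carry their names. Vegfd and Adamts1 lie furthest right at 1.41, and 12 of the 15 filled effectors lie left of 0.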

How the data were processed

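RNA of 6 cultures, 3 with VPA and 3 with PBS, was extracted with Trizol and labelled by an Affymetrix whole transcript assay, per the labels' protocols. The authors deposited 1 normalized log2 signal for each probe set and array. The values ran from 2.50 to 13.89, which is why they were taken to be in base 2. Array medians lay between 6.99 and 7.03. The submitters' processing notes name Partek 6.5 and mm9 without saying what each was used for. How background was corrected, probes were summarized and arrays were normalized is not given in the sources used here. Scaling arrays to each other makes each change relative to the other genes. The number of arrays limits the precision.

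Of 35556 probe sets, 21789 had exactly 1 symbol in the platform annotation, 1621 several and 12146 none. Symbols were updated through Entrez IDs (21698 matched). Each gene was represented by its brightest probe set over all 6 arrays, giving 19938 genes. The family had 33 probe sets, and 0 with several symbols. The 2 groups were compared by limma 3.58.1 in R 4.3.3 (lmFit, eBayes, no covariates), with Benjamini-Hochberg adjustment over all genes. An exact permutation test of 3 against 3 cannot give a p below 0.1 and was not used. In a test on simulated arrays of 19938 genes, a small part of the genes was changed by 0.25, 0.5, 1 or 2 (log2). The fit recovered 6%, 66%, 96% and 98% of these, in that order of size, and 5% of its calls were false. In the data 29.2% of genes passed. The adjustment depends on the share of genes that change, so these recovery figures do not carry over to the data.

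The members and gene lists were chosen with earlier results of these data known. Each gene of the family was to be described; from each part of the pathway list up to 4 genes that passed were named, by size of change, and otherwise the 1 with the smallest p. Replicate numbers are not said to pair samples, and same-numbered samples did not deviate together (correlations of -0.02, -0.01 and 0.02). The alternatives were quantile normalization, median centring, filters at the lowest 30% of genes and at the gauge, another variance model, weights per array, a block for the replicate number, the mean of probe sets and leaving out each array.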

Additional observations from a re-analysis of the deposited data

How the results depend on the processing

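Over 14 other settings, the 31 genes gave 432 values, and 0 of them reversed a change that passed in either fit. Of these values, 391 kept their direction and side of the threshold, 16 lost the call, 10 gained it and 15 turned sign without passing before or after. Of the 14 genes that passed, 11 passed in every setting run; the others were Sema3g, Sema4g and Sema6a. With the replicate block, which treats the number as a pairing, 7 genes of the family were higher and 5 lower, against 2592 and 2818 of all genes; Sema3g and Sema6a were lost. With array weights, which gave VPA 1 a weight of 0.214, 4342 of all genes were higher and 4575 lower, 10 of the family were lower and 3 receptors were lower. Leaving out 1 array gave 1778 to 3949 genes higher and 2058 to 4224 lower, 4 to 12 of the family lower, 3 to 9 semaphorins lower, 1 to 3 receptors lower and 11 to 20 pathway genes lower. The low ends for all genes were without PBS 2, and the high ends of these 6 counts were without VPA 1. The low end for semaphorins, 3, was reached without PBS 1, PBS 2 or VPA 2, and that for pathway genes without PBS 2 or PBS 3. The cause was not tested. With 3 arrays a group, changes as small as those of Sema3g and Sema6a stood near the limit of what passed.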
